A study of Mus musculus with 12 samples.

Results

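The genes described here encode the enzymes that hydroxylate collagen and cross-link it: 3 α subunits of prolyl 4-hydroxylase (P4ha1, P4ha2 and P4ha3), 3 lysyl hydroxylases (Plod1, Plod2 and Plod3) and 4 members of the lysyl oxidase family (Lox, Loxl1, Loxl2 and Loxl4). They were chosen by gene symbol, as 10 of the 37681 genes in the deposited read table, and 9 of the 10 were among the 19399 genes with enough reads to be tested. RNA came from a thin slice of kidney cortex of male C57BL/6 mice, 18 months old, and was sequenced for both kidneys of 3 TRACK mice (TG+) and 3 wild-type littermates (TG-), so 12 libraries stand for 6 mice. TG+ mice carry the γ-HIF1αM3 transgene, a mutated and constitutively active HIF1α placed under a γ-glutamyl transferase (GGT) promoter and expressed in the proximal tubule. The TG- mice carry no transgene, and no mouse was treated.

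Collagen chains are modified while they fold in the endoplasmic reticulum. Prolyl 4-hydroxylase, a tetramer of a pair of α subunits with a pair of P4hb subunits (protein disulfide isomerase), hydroxylates the proline residues that keep the triple helix stable at body temperature, and lysyl hydroxylases act on lysine residues of the helix or of the telopeptides. Lysyl oxidases are copper enzymes that act later, outside the cell, and oxidize lysine and hydroxylysine so that collagen and elastin can be cross-linked. The hydroxylases use oxygen, iron and 2-oxoglutarate, and several of these genes are known targets of HIF1α.

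Levels are given as CPM, counts per 1e6 reads of the TMM-normalized library size, with the reads of both kidneys of a mouse summed first. The study's own limits were used for calls, a fold change above 2 or below 0.5 with an adjusted p under 0.01, here by the quasi-likelihood test of edgeR. By this rule 6 of the 9 tested members were higher in TG+ cortex, namely P4ha1, P4ha2, Plod1, Plod2, Loxl2 and Loxl4, where the same rule called 3.77% of all tested genes as higher and 0.211% as lower. On the adjusted p alone, which takes in changes under 2-fold, Plod3 and Loxl1 were higher as well, giving 8 of 9 members. By that rule 7.91% of all genes were higher and 4.25% were lower. Lox did not pass (adjusted p = 0.0135). In all 9 tested members the 3 TG+ mice lay above the 3 TG- mice, which was true of 23.4% of all tested genes, and the 2-sided exact permutation test gave p = 0.1 for each, the smallest p that 3 against 3 mice allow. The median log2 fold change was 1.69 over the 9 members and 0.01 over all tested genes. With libraries scaled by size alone the median of all genes was 0.13 and that of the members 1.81. With no filter on low counts, which takes in P4ha3 as well, the median of the members was 1.42.

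**Figure D1:**
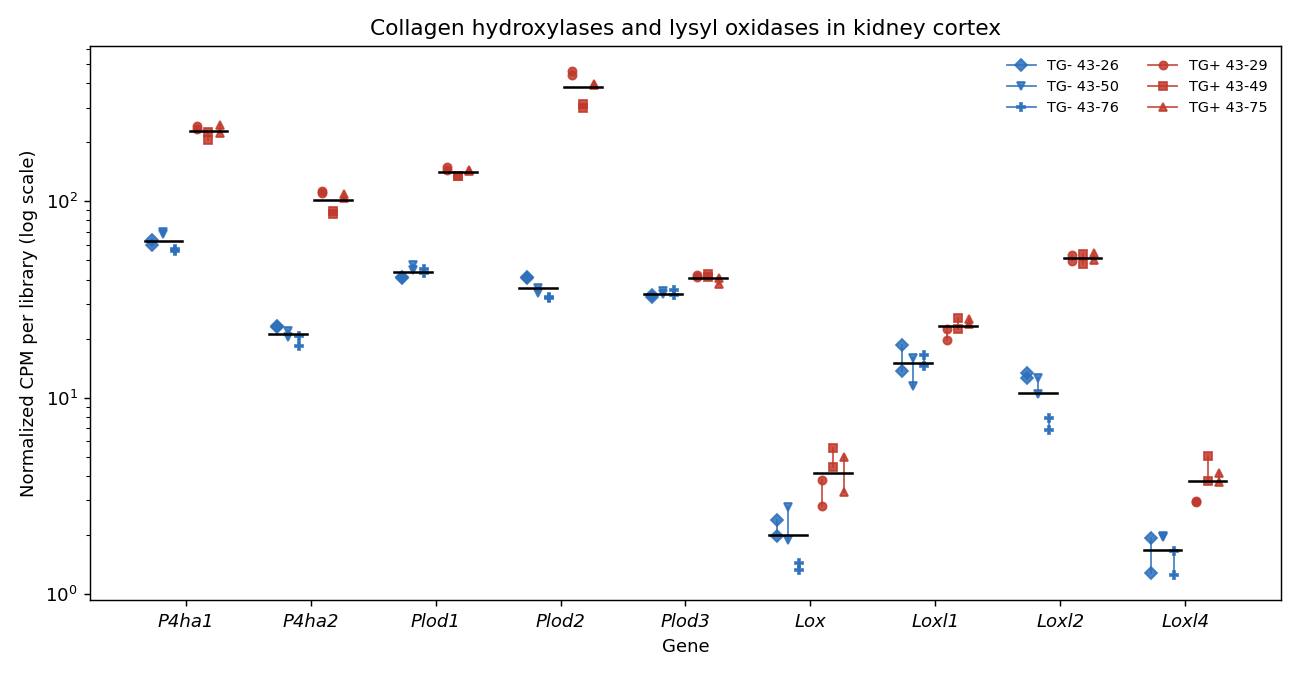
Normalized CPM of the 9 tested genes in every library on a log axis, with the kidneys of a mouse joined by a line, TG- mice in blue, TG+ mice in red, and the black bar at the mean of the 3 mice. Plod2 lies furthest apart, from 32.4 to 41.1 CPM in TG- mice and from 305 to 449 in TG+ mice, whereas the libraries of Lox, Loxl1 and Plod3 nearly meet.

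The depth behind these values was 48052131 to 53275152 reads per TG+ mouse and 50570271 to 60506785 per TG- mouse, and no library was set aside. All 8 proximal tubule markers were detected in both genotypes, with a summed level of 25878 to 29133 CPM in TG+ mice and 36014 to 38144 in TG- mice. Most of this sum was Kap in TG+ mice, at 16181 CPM against 17074 in TG- mice (log2 fold change -0.08). The median log2 fold change of the 8 was -0.61, with 5 of 8 lower on the adjusted p alone and 2, Slc22a6 and Cyp4b1, past the full threshold. In bulk tissue, fewer cells of a type and less RNA per cell cannot be told apart. Of 12 reference targets of HIF1α, all 12 were higher in TG+ mice on the adjusted p alone and 9 passed the full threshold. Their median log2 fold change was 2.60. Car9, Ndufa4l2, Pdk1 and Slc2a1 of this list were already reported by the study as higher in TRACK kidneys. The counts are therefore a description and not an independent test. Of the 12, Egln3, a HIF prolyl hydroxylase, had a log2 fold change of 4.93. Pdk1, which inactivates pyruvate dehydrogenase, had one of 2.94. Egln1 (0.91), Vegfa (0.71) and Kdm3a (0.64) stayed under the 2-fold limit.

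The α subunits of prolyl 4-hydroxylase carry the catalytic site. P4ha1, the most widely expressed α subunit (ENSMUSG00000019916, chr10:59323296-59373304, plus strand, positions on GRCm38), stood at 237, 214 and 234 CPM in the TG+ mice 43-29, 43-49 and 43-75. In the TG- mice 43-26, 43-50 and 43-76 it stood at 61.9, 69.2 and 56.8 CPM. The lowest TG+ library held 204 CPM of P4ha1 and the highest TG- library 69.9, so the kidneys did not overlap either. The log2 fold change of P4ha1 was 1.87 with a standard error of 0.084, a 3.64-fold difference (adjusted p = 1.10e-05, edgeR). P4ha2, the second α subunit (ENSMUSG00000018906, chr11:54100095-54131665, plus strand), stood at 112, 87.3 and 106 CPM in TG+ mice against 23.0, 21.0 and 19.5 CPM in TG- mice. Here too every TG+ mouse was above every TG- mouse, with 43-49 the lowest of the TG+ mice for both subunits. The log2 fold change of P4ha2 was 2.26 ± 0.11 (standard error), a 4.80-fold difference (adjusted p = 1.32e-05, edgeR).

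P4ha3, the third α subunit (ENSMUSG00000051048, chr7:100285520-100319699), was close to undetected. It had 3, 0 and 2 reads in the TG+ mice and 2, 4 and 5 reads in the TG- mice, and at most 4 reads in any library. It was not tested, and no fold change is given. A difference in P4ha3 was not detectable at this depth.

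Lysyl hydroxylase 1, encoded by Plod1 (ENSMUSG00000019055, chr4:147909753-147936767, minus strand), hydroxylates lysines of the collagen helix. Its level was 147, 134 and 143 CPM in TG+ mice and 41.1, 46.0 and 44.3 CPM in TG- mice. The 3 mice of a genotype lay close together, with a coefficient of variation of 4.59% in TG+ and 5.68% in TG- mice. The log2 fold change of Plod1 was 1.69 with a standard error of 0.065, a 3.23-fold difference (adjusted p = 5.19e-06, edgeR). Plod2 (ENSMUSG00000032374, chr9:92542223-92608428, plus strand) encodes the lysyl hydroxylase that acts on the telopeptides, the short ends of the collagen chain. It had the largest fold change of the 9 members, with 449, 305 and 393 CPM in TG+ mice against 41.1, 35.5 and 32.4 CPM in TG- mice. The log2 fold change of Plod2 was 3.40 ± 0.16 (standard error), a 10.5-fold difference (adjusted p = 1.28e-05, edgeR), and 0.629% of all tested genes had a larger log2 fold change. Its spread among TG+ mice was wide, a coefficient of variation of 19.0%, with 43-49 again lowest. The kidneys of 1 mouse differed little by comparison, by a median of 0.04 on the log2 scale for Plod2 and 0.03 for Plod1.

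HIF1α with its partner HIF1β binds the letters ACGTG or GCGTG, the core of the hypoxia response element. The 250 bases before the transcription start were read for both cores on both strands, a start being the one RefSeq gives on GRCm38.p6. RefSeq windows matched 6 of the 10 members, P4ha1, P4ha2, P4ha3, Plod1, Plod3 and Loxl4, and those of Plod2, Lox, Loxl1 and Loxl2 were not analysed here. The letters ACGTG and its reverse complement overlap where CACGTG stands and were then counted on each strand, which did not happen in the windows printed. P4ha1 and P4ha2 held 3 cores each and Plod1 held 1, whereas 38.6% of the windows of 27025 genes held at least 1 core and 6.69% held 3 or more. These windows are shown because their genes were called higher, and because no exon of GENCODE M21 reaches into them. Each is written 5′ to 3′ on the strand of its gene with the cores in capitals, as ACGTG or GCGTG, or as CACGT or CACGC where the core is on the other strand.
P4ha1, chr10:59323046-59323295, plus strand: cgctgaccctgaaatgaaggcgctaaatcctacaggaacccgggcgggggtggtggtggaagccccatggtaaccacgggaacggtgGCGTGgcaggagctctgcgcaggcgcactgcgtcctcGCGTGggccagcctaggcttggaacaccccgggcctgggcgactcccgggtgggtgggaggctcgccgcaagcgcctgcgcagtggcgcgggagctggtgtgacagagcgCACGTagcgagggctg
P4ha2, chr11:54100674-54100923, plus strand: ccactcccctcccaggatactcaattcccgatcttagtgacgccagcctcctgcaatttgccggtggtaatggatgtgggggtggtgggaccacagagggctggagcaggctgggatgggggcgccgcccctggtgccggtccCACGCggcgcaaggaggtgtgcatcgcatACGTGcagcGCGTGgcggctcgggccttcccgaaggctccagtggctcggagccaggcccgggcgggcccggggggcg
Plod1, chr4:147936777-147937026, minus strand: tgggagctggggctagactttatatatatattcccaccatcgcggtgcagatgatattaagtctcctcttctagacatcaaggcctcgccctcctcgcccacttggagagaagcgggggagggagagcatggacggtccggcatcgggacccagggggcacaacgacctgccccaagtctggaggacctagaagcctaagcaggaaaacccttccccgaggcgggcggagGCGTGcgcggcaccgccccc

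The cores of P4ha1 begin 163, 126 and 16 bases before the start, those of P4ha2 begin 107, 78 and 69 bases before it, and the core of Plod1 begins 20 bases before it. The window of P4ha2 lies inside the gene as GENCODE M21 draws it, since RefSeq places the start further downstream. A match of these letters is a description of the sequence and not a binding site. Of the tested members Plod3, which differed least between the genotypes, held 4 cores, a number reached by 2.66% of all windows, although 208 of its 250 bases lie in exons of the neighbouring gene Znhit1. Loxl4 held 1 core and P4ha3, nearly without reads, held none.

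The third lysyl hydroxylase gene, Plod3 (ENSMUSG00000004846, chr5:136987019-136996648, plus strand), encodes an enzyme that also transfers glucose and galactose to hydroxylysine. It stood at 41.6, 41.7 and 39.3 CPM in TG+ mice against 32.9, 34.3 and 34.3 CPM in TG- mice. The mice did not overlap, but the difference was small, a log2 fold change of 0.27 ± 0.053 (standard error) with an adjusted p of 0.00841 (edgeR). Plod3 stayed below an adjusted p of 0.01 under 4 of 14 alternative analyses and lay above it under 10, among them each of the 6 that leave out a mouse (adjusted p 0.0212 to 0.0338). It overlaps Znhit1 on the opposite strand, and whether reads were counted by strand is not given in the sources used here. Znhit1 itself had a log2 fold change of 0.20 (adjusted p = 0.0759, edgeR). Plod2, Lox and Loxl2 also overlap genes annotated in GENCODE M21 on the other strand, which were not analysed here.

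In the lysyl oxidase family the largest difference was that of Loxl2. This gene (ENSMUSG00000034205, chr14:69609068-69695834, plus strand), an oxidase known for cross-linking the type IV collagen of basement membranes, stood at 51.2, 50.7 and 52.2 CPM in TG+ mice against 13.0, 11.4 and 7.41 CPM in TG- mice. The TG+ mice differed from each other by a coefficient of variation of 1.48%, and the TG- mice by 27.2%, with 43-76 lowest in both kidneys. The log2 fold change of Loxl2 was 2.27 ± 0.18 (standard error), a 4.84-fold difference (adjusted p = 1.47e-04, edgeR), and 2.07 without 43-76.

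Loxl1 (ENSMUSG00000032334, chr9:58287738-58313186, minus strand), which is needed for elastic fibre upkeep, stood at 21.0, 23.9 and 24.4 CPM in TG+ mice and at 16.3, 13.5 and 15.5 CPM in TG- mice. This difference of 0.62 ± 0.093 (standard error) on the log2 scale was under the 2-fold limit, with an adjusted p of 0.00304 (edgeR). The adjusted p of Loxl1 lay above 0.01 under 4 of 14 alternatives, without 43-49 (0.0115), without 43-75 (0.0150), without 43-76 (0.0145) and with kidney 1 only (0.0360).

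Loxl4 (ENSMUSG00000025185, chr19:42593982-42612813, minus strand) was called from few reads, 31 to 150 per library. Its level was 2.95, 4.41 and 3.94 CPM in TG+ mice and 1.62, 1.98 and 1.45 CPM in TG- mice. The mice did not overlap, and the log2 fold change of 1.16 ± 0.19 (standard error) came with an adjusted p of 0.00447 (edgeR). This call was lost without 43-49 (adjusted p = 0.0137, edgeR), without 43-75 (0.0185), without 43-26 (0.0163) and without 43-76 (0.0222), and with kidney 1 only (0.0112).

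Lox (ENSMUSG00000024529, chr18:52516067-52529867, minus strand), the founding member of the family, stood at 3.34, 4.99 and 4.12 CPM in TG+ mice and at 2.18, 2.40 and 1.39 CPM in TG- mice. The mice did not overlap, whereas the kidneys came close, with 2.80 CPM in the lowest TG+ library and 2.79 in the highest TG- library. The log2 fold change of Lox was 1.06 with a standard error of 0.23, and the adjusted p of 0.0135 (edgeR) missed the threshold. Lox passed under 6 of 14 alternatives, DESeq2 among them (adjusted p = 1.86e-04), and its adjusted p ranged up to 0.0794 with kidney 1 only. The kidneys of 1 mouse differed by a median of 0.38 on the log2 scale for Lox, 0.28 for Loxl4, 0.18 for Loxl1 and 0.14 for Loxl2, against 0.03 to 0.07 for the tested hydroxylases. Lox also had few reads, 33 to 165 per library, against 444 to 11873 for the tested hydroxylases. The part of read number in these kidney differences was not tested.

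Divided by the length of their exons, the levels can be set in order. In TG- mice P4ha1 was highest with 15.2 ± 1.52 CPM per kilobase (SD, n = 3), and P4ha2 stood at 3.40 ± 0.28. The 3 lysyl hydroxylases lay together, Plod3 at 7.49 ± 0.18, Plod2 at 6.74 ± 0.81 and Plod1 at 6.47 ± 0.37 CPM per kilobase, and neighbours among them overlapped in single mice. In TG+ mice Plod2, at 70.9 ± 13.5 CPM per kilobase, and P4ha1, at 55.5 ± 3.07, were highest and overlapped in single mice. Plod1 followed at 20.9 ± 0.96, P4ha2 at 16.3 ± 2.04, Loxl2 at 9.51 ± 0.14, Plod3 at 9.05 ± 0.30 and Loxl1 at 7.01 ± 0.55 CPM per kilobase. Lox and Loxl4 were lowest of the tested genes in both genotypes, at 0.868 and 0.894 CPM per kilobase in TG+ mice and 0.417 and 0.400 in TG- mice, and overlapped in single mice on this scale. On the RPKM scale of the authors, which uses other gene lengths, Plod3 stood below Plod1 and Plod2 in TG- mice, and Plod2 and P4ha1 did not overlap in TG+ mice. Lox stood above Loxl4 there without overlap in both genotypes, at 0.689 against 0.312 RPKM in TG+ and 0.342 against 0.145 in TG- mice, and P4ha2 overlapped with Loxl2 in TG- mice.

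The make-up of each enzyme family can be read from these length-scaled levels, as the share that each isoenzyme held of its family's sum in a mouse. Plod2 held 36.3%, 31.4% and 29.8% of the lysyl hydroxylase level in TG- mice and 72.9%, 66.1% and 71.0% in TG+ mice. Plod3 went the other way, from 36.2% ± 1.47 (SD, n = 3) in TG- mice to 9.11% ± 1.47 in TG+ mice, and Plod1 from 31.3% ± 2.02 to 20.9% ± 2.10. Within the lysyl oxidases, with Loxl3 counted in, Loxl2 held 21.1% ± 4.18 in TG- mice and 46.7% ± 2.10 in TG+ mice. Loxl1, the leading oxidase of TG- cortex, held 50.0% ± 5.44 there and 34.3% ± 1.22 in TG+ mice. Loxl3 held 19.0%, 20.7% and 20.2% in TG- mice and 10.8%, 10.5% and 9.90% in TG+ mice. Among the α subunits the shares shifted less, P4ha1 from 81.6% ± 1.49 to 77.4% ± 1.28 and P4ha2 from 18.3% ± 1.50 to 22.6% ± 1.27. P4ha3 held 0.123% and 0.0143% in TG- and TG+ mice, from at most 5 reads a mouse. Its own CPM overlapped between the genotypes, so this share is not read as a difference in P4ha3. Shares within a family also depend on each other. The mice did not overlap for any of these 9 shares (2-sided exact permutation p = 0.1 each, 0.122 adjusted over 11 shares, and no share can pass 0.05 with 3 against 3 mice). The shares of Lox, 4.51% ± 1.04 and 4.24% ± 0.70 in TG- and TG+ mice, and of Loxl4, 4.36% ± 0.73 and 4.37% ± 0.69, overlapped.

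**Figure D2:**
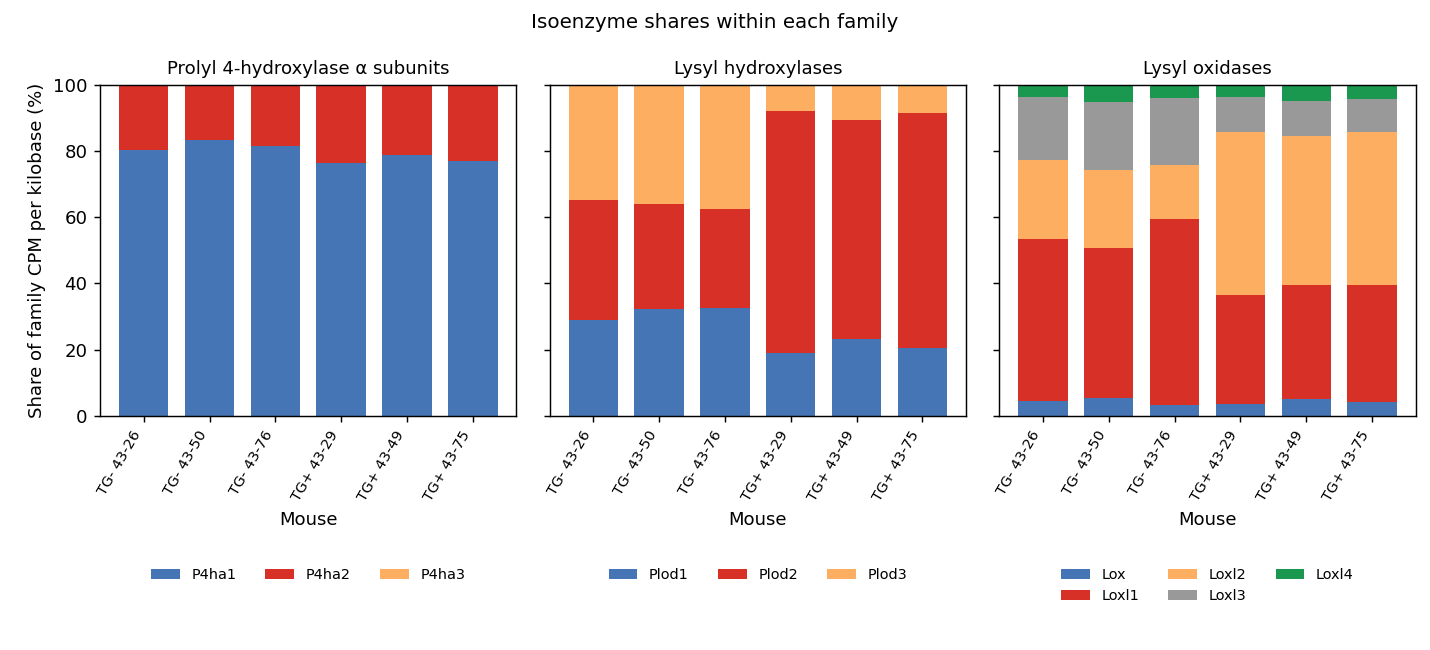
Stacked bars give, for each mouse, the share of each isoenzyme in its family's summed CPM per kilobase, in percent, for the prolyl 4-hydroxylase α subunits, the lysyl hydroxylases and the lysyl oxidases. In the middle panel Plod2 takes 29.8% to 36.3% in TG- mice and 66.1% to 72.9% in TG+ mice, and in the right panel Loxl2 takes 16.3% to 23.8% and 44.9% to 49.0%.

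Whether 1 member rose more than another was tested on the log2 ratio of their levels in each mouse, for 10 pairs within families. Plod2 gained on Plod3 by 3.11 and on Plod1 by 1.69 on the log2 scale, and Plod1 gained on Plod3 by 1.42. Loxl2 gained 1.70 on Loxl1, 1.24 on Lox and 1.16 on Loxl4, and P4ha2 gained 0.39 on P4ha1. In these 7 pairs the mice of both genotypes did not overlap (2-sided exact permutation p = 0.1, 0.143 adjusted over 10 pairs). The log2 ratio of Lox to Loxl4 was 0.14 ± 0.07 (SD) in TG+ and 0.22 ± 0.25 in TG- mice and overlapped, as did those of Loxl1 with Lox and with Loxl4.

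The summed level of the α subunits was 71.8 ± 5.12 CPM per kilobase (SD, n = 3) in TG+ mice and 18.7 ± 1.63 in TG- mice, a 3.85-fold difference. P4hb, the partner in the tetramer, which also serves other roles in protein folding, stood at 278 ± 13.1 and 242 ± 12.3 CPM per kilobase. Its log2 fold change was 0.20 ± 0.062 (standard error) and did not pass (adjusted p = 0.0457, edgeR). The ratio of α subunit to P4hb message was thus 0.261, 0.250 and 0.263 in TG+ mice and 0.0790, 0.0792 and 0.0732 in TG- mice, with no overlap, 3.34-fold apart. On the RPKM scale of the authors, which uses other gene lengths, the ratio itself was lower, 0.153 in TG+ and 0.0464 in TG- mice. It differed 3.31-fold there, so its size depends on the gene lengths used.

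Beside the members stood a list of partner and related genes, 14 in all and all 14 tested. It holds P4hb and other proteins that modify or fold collagen in the endoplasmic reticulum, and also Loxl3 and P4htm, relatives of the members that do not belong to that group. Their median log2 fold change was 0.21. By the adjusted p alone, which called 7.91% of all tested genes higher and 4.25% lower, 13 of 14 did not pass. The exception was Crtap, the cartilage-associated protein of the prolyl 3-hydroxylation complex, with 43.6 ± 2.49 CPM (SD, n = 3) in TG+ and 33.4 ± 0.40 in TG- mice and a log2 fold change of 0.38 (adjusted p = 0.00321, edgeR). Crtap lay above an adjusted p of 0.01 without each mouse other than 43-49 (0.0126 to 0.0193). It overlaps 4930520O04Rik on the other strand, a transcript at 1.32 and 0.600 CPM. Serpinh1, the collagen chaperone HSP47, stood at 93.3 ± 2.58 and 81.3 ± 1.92 CPM, a log2 fold change of 0.20 (adjusted p = 0.0239). The prolyl 3-hydroxylases P3h1, P3h2 and P3h3 had log2 fold changes of -0.20, 0.08 and 0.41, with adjusted p-values of 0.157, 0.763 and 0.0470. For the galactosyltransferases of hydroxylysine, Colgalt1 and Colgalt2, the log2 fold changes were 0.21 and 0.08, and for the prolyl isomerases Fkbp10, Fkbp14 and Ppib they were 0.43, -0.06 and 0.07, none of them passing. Loxl3, the lysyl oxidase outside the member list, stood at 9.74 ± 0.31 CPM in TG+ and 8.42 ± 0.55 in TG- mice, a log2 fold change of 0.21 (adjusted p = 0.0939). P4htm, a transmembrane prolyl hydroxylase, was at 1.72 and 1.45 CPM, and P3h4, a non-enzymatic relative, at 3.18 and 2.44 CPM, without passing.

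**Figure D3:**
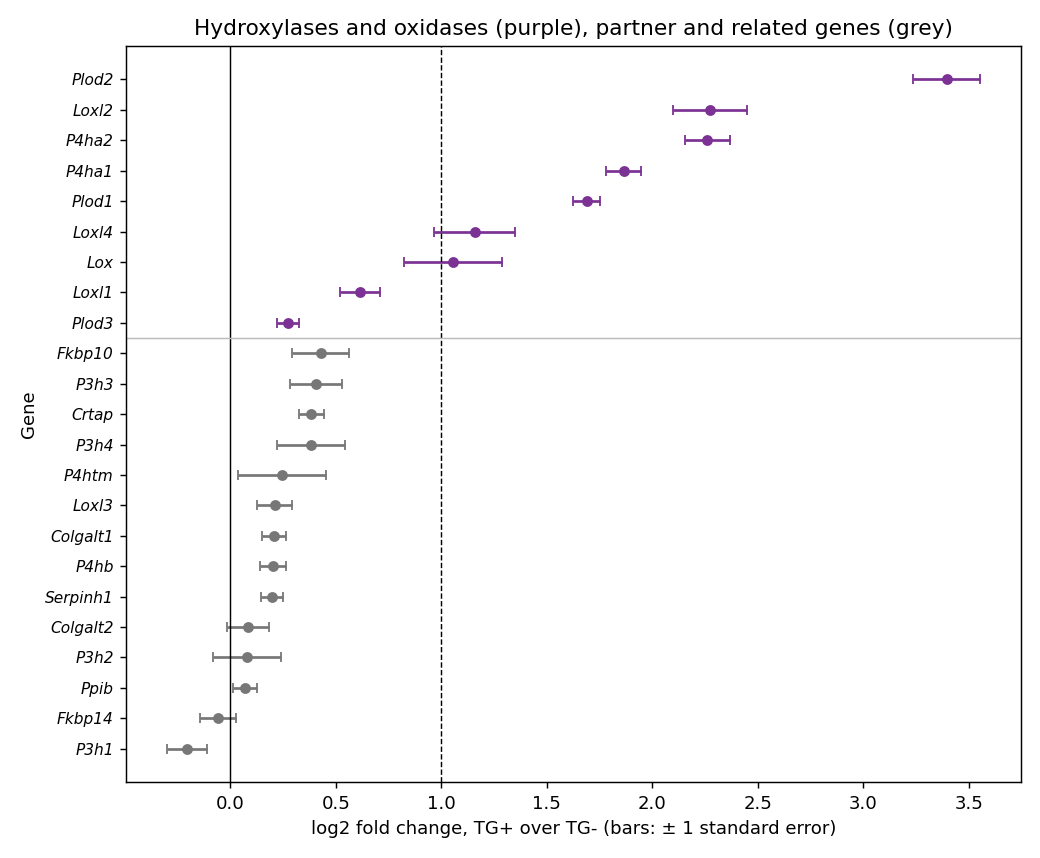
Fitted log2 fold change of TG+ over TG- mice with 1 standard error for the 9 tested members (purple) and the 14 partner and related genes (grey), with the dashed line at a log2 fold change of 1. Members run from 0.27 for Plod3 to 3.40 for Plod2, and the other genes from -0.20 for P3h1 to 0.43 for Fkbp10.

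Genes that process procollagen or build the matrix were listed as well. Of 9 processing genes 8 were tested, with a median log2 fold change of 0.26. This median ran from 0.05 with kidney 1 only to 0.38 with library size alone, and from 0.07 to 0.37 without a mouse. In this list 2 genes passed the adjusted p alone. Bmp1, the procollagen C-proteinase, which also cleaves the Lox proenzyme, was higher (10.4 against 7.10 CPM, log2 fold change 0.54, adjusted p = 0.00538), and Mia3, a cargo receptor for procollagen export, was lower (112 against 135 CPM, log2 fold change -0.26, adjusted p = 0.00882). Bmp1 lay above an adjusted p of 0.01 without each mouse other than 43-29 (0.0135 to 0.0267) and with either kidney alone, and Mia3 under 10 of 14 alternatives, among them without each of the 6 mice (0.0156 to 0.0350). Of 16 collagens and matrix proteins, 16 had a log2 fold change above 0, with a median of 0.48, where 10042 of all 19399 tested genes did. Against 7.91% of all tested genes, 5 passed the adjusted p alone as higher. These were Col1a2 (log2 fold change 0.66), the basement membrane collagens Col4a1 (0.68) and Col15a1 (0.83), Efemp2, an elastic fibre protein that binds Lox (0.94), and fibronectin, Fn1 (1.26), which alone also passed the 2-fold limit. Col15a1, Efemp2 and Fn1 passed under all 14 alternatives. Col1a2 did not pass with kidney 1 only or without 43-49, 43-75, 43-26 or 43-76 (0.0245 to 0.0332 without a mouse), and Col4a1 not without 43-29, 43-75, 43-50 or 43-76 (0.0108 to 0.0183). Postn, periostin, had the highest log2 fold change of this list, 1.32, and did not pass (adjusted p = 0.0771, edgeR). Col4a1 was the most abundant of them, at 312 ± 34.8 CPM in TG+ and 195 ± 20.7 in TG- mice.

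The summed levels of the enzyme families were set against the message of their collagen substrates. The collagens of the list summed to 124 ± 7.95 CPM per kilobase in TG+ mice and 89.9 ± 7.78 in TG- mice, a ratio of 1.38. The lysyl hydroxylases summed to 101 ± 14.4 and 20.7 ± 0.46 CPM per kilobase, a ratio of 4.87, and the lysyl oxidases to 20.4 ± 0.93 and 9.19 ± 0.86, a ratio of 2.22. Per unit of collagen message, lysyl hydroxylase message was 0.887, 0.743 and 0.795 in TG+ mice and 0.214, 0.236 and 0.244 in TG- mice. For the α subunits it was 0.588, 0.573 and 0.571 against 0.191, 0.228 and 0.205, and for the lysyl oxidases 0.150, 0.181 and 0.162 against 0.103, 0.102 and 0.102. In each of these 3 ratios the mice did not overlap.

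**Figure D4:**
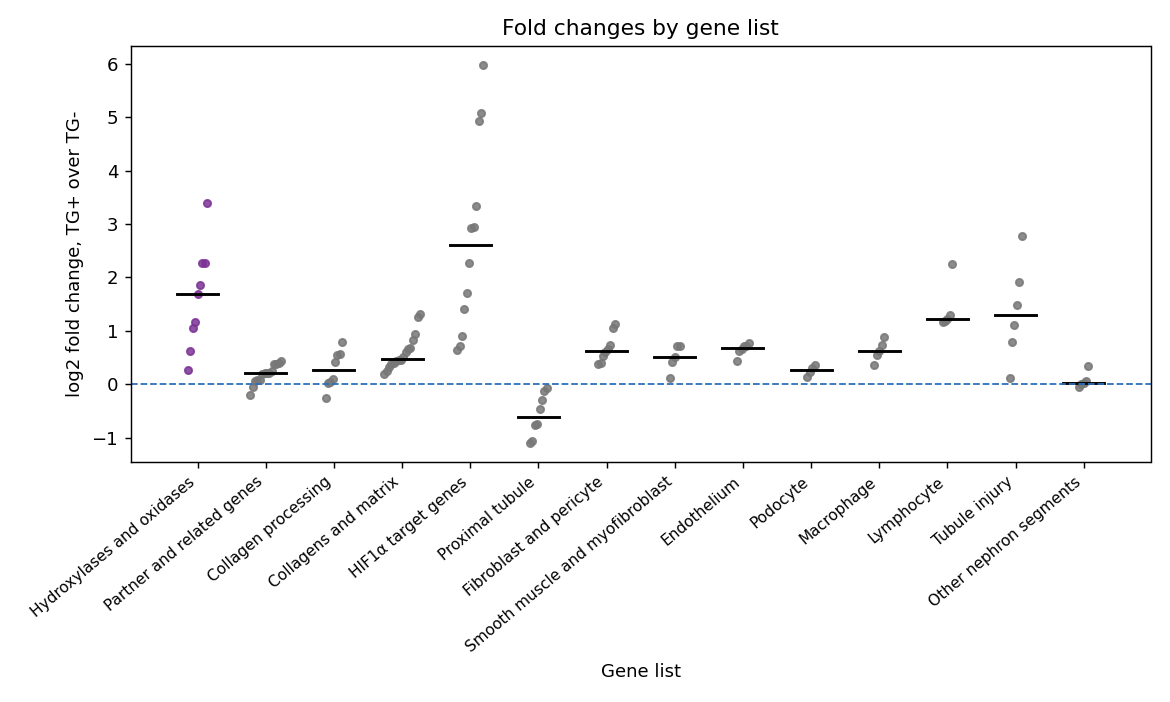
Each point is the log2 fold change of TG+ over TG- mice of 1 tested gene, grouped by list, with a black bar at the list's median and a dashed blue line at the median of all tested genes, 0.01. The median of the hydroxylases and oxidases (purple, 1.69) lies between those of the reference targets of HIF1α (2.60) and of the partner and related genes (0.21). Single points of the 3 lists overlap, and proximal tubule markers lie below 0.

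Markers of cell types that make matrix were measured beside the members. All 8 fibroblast and pericyte markers had log2 fold changes above 0, as had 10042 of all 19399 tested genes. Col1a1, Col1a2 and Col3a1 of this list are collagens too. The 8 markers summed to 249.9 to 328 CPM in TG+ and 168 to 195 in TG- mice, and 1 of them, Col1a2, passed the adjusted p alone. The 5 smooth muscle markers summed to 104 to 153 CPM in TG+ and 69.8 to 101 in TG- mice, with Cnn1 lowest at 0.863 and 0.795 CPM, and 1 of them, Tagln (log2 fold change 0.72), passed the adjusted p alone. The 6 endothelial markers summed to 499 to 537 and 293 to 386 CPM, and 5 of them passed the adjusted p alone. No marker of these 3 lists was at 0. The median log2 fold changes were 0.63, 0.51 and 0.69 in this order, beside 0.27 for podocyte, 0.63 for macrophage, 1.23 for lymphocyte, 1.30 for tubule injury and 0.03 for other nephron segment markers.

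In ratio to the fibroblast sum, P4ha1 was 2.34-fold, P4ha2 3.10-fold, Plod1 2.07-fold, Plod2 6.84-fold and Loxl2 3.14-fold higher in TG+ mice, and the genotypes did not overlap for these 5 genes. The same held in ratio to the smooth muscle and the endothelial sums. Loxl1 in ratio to the fibroblast sum was 0.972-fold and overlapped, and it overlapped for the other 2 sums as well. Lox in ratio to the fibroblast sum was 1.34-fold and overlapped, as it did for the endothelial sum, but it was 1.37-fold without overlap for the smooth muscle sum. Loxl4 was 1.42-fold in ratio to the fibroblast sum and 1.45-fold in ratio to the smooth muscle sum, both without overlap, and overlapped for the endothelial sum. Plod3 was lower in TG+ mice in ratio to the fibroblast sum, 0.775-fold, and the endothelial sum, 0.777-fold, both without overlap, and overlapped for the smooth muscle sum. Lox and Loxl4 ranked the 3 mice of each genotype in the same order as the smooth muscle, lymphocyte and other nephron segment sums did, with 43-49 highest and 43-29 lowest among TG+ mice and 43-76 lowest among TG- mice. The lists that share this order were picked out after all marker sums were seen. The other nephron segment sums of the TG- mice 43-26 and 43-76 were close, 3829 and 3814 CPM. The lymphocyte sums were low, 3.23 to 3.96 CPM in TG- mice. The part of these cell types in the levels of Lox, Loxl1 and Loxl4 was not tested.

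The mice did not rank alike for all members. Among TG+ mice, 43-49 was lowest for P4ha1, P4ha2, Plod1, Plod2 and, by a small margin, Loxl2, and its summed level of the HIF1α reference targets was also lowest, 2477 CPM against 3019 and 3133. The same mouse was highest for Lox and Loxl4 and, by a small margin, for Plod3, and in the middle for Loxl1. Only 3 TG+ mice were sequenced, so the order of these mice is a description.

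The genes whose pattern over the 12 libraries was most like that of each called member were sought among 11910 genes with a mean of at least 5 CPM outside the lists, by Pearson's r of log2 CPM. The points share mice and span both genotypes, so r includes the difference between genotypes and is given as a description. For Plod2 these were Pfkp, the platelet phosphofructokinase (r = 0.999), Fam162a and Il17rb, and for P4ha2 Fam162a (r = 0.999), Pfkp and Plekha2. Plod1 was most like the glycolytic genes Eno1 (r = 0.999) and Pfkl, followed by Eno1b. P4ha1 was most like Gm4735 (r = 0.998) and Eno1b, then Ctnnbip1, where Gm4735 and Eno1b are near-copies of Eno1 whose reads may have been split among them. Loxl2 was most like Phospho1 (r = 0.996), Cpb2 and Mthfd1l. The r values of Loxl4 were lower, 0.968 for Aqp4, 0.967 for 4931428F04Rik and 0.964 for Oxr1.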

How the data were processed

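RNA from kidney cortex was sequenced by the authors as 51-base single-end reads from TruSeq libraries and analysed mainly with the Tuxedo tools, and the submitters' processing notes name the mouse build mm9. The annotation release, the counting program and the handling of strand are not given in the sources used here. The authors deposited raw read counts per Ensembl gene for 12 libraries, and RPKM values scaled by a method the header calls BUQ. Deposited fold changes, p-values and q-values and 12 columns of log2 RPKM were not used.

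Counts of both kidneys of a mouse were summed, giving 48052131 to 60506785 reads for each of 6 mice. In R 4.3.3, edgeR (version 4.0.16, with limma 3.58.1) filtered genes by filterByExpr, scaled libraries by TMM and ran its quasi-likelihood test on 19399 genes, over which p-values were adjusted by the Benjamini-Hochberg method. The procedure was tested on simulated data. P-values measure the spread between 3 mice a genotype. Standard errors were derived from the fold change and its F statistic. Shares, ratios and pairs of members were compared with exact permutation tests over the 20 assignments of mice. Ratios to marker sums were chosen after seeing the data.

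Gene symbols, positions and exon lengths came from GENCODE M21 (GRCm38, not the build of the counts), matched by Ensembl identifier for 32661 of 37681 genes, and windows before transcription starts from RefSeq on GRCm38.p6. Members, lists and named genes were chosen with earlier results of these data known. Named were all members, the list of partner and related genes, the 3 genes most like each called member and, from the other pathway lists, genes past the adjusted p or most abundant, for the HIF1α targets only examples. Postn, Znhit1, 4930520O04Rik and the markers named were chosen after their values were seen. Alternatives were DESeq2 (1.42.0), other scalings, no filter, kidneys taken singly or as separate libraries, a block for pairs of mice and leaving out each mouse. Tables were made with pandas 2.3.3 on Python 3.11.15, permutation tests with scipy 1.17.1 and numpy 2.4.6, and figures with matplotlib 3.10.9.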

Additional observations from a re-analysis of the deposited data

How the results depend on the processing

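P4ha1, P4ha2, Plod1, Plod2 and Loxl2 passed the full threshold under all 14 alternative fits, with an adjusted p of at most 0.00122. The number of members called ran from 5 to 8 and that past the adjusted p alone from 5 (kidney 1 only, and without 43-49, 43-75 or 43-76) to 9, or 5 to 7 leaving out a mouse. Over all genes, 732 higher became 1534 with no minimum fold change and 469 to 633 without a mouse, and 41 lower became 824 with no minimum, 22 with library size alone, 72 at an adjusted p below 0.05 and 29 to 50 without a mouse. Genes higher on the adjusted p alone were 1 in the list of partner and related genes, 4 with library size alone, 6 with each kidney as its own library and 0 to 1 without a mouse. In the processing list 1 became 0 with kidney 1 or kidney 2 only and 0 to 1 without a mouse. In the substrate list 5 became 9 by DESeq2, 10 with each kidney as its own library and 3 to 5 without a mouse. The change in share from TG- to TG+ was -10.4 percentage points for Plod1, -13.2 with CPM without a length and -13.9 on the deposited RPKM, added after seeing the data. It was -27.1 for Plod3, -22.4 and -21.5, and -9.57 for Loxl3, -11.8 and -10.7. The block for the pairs of mice listed together in the deposited table called 7 members in place of 6, the 1 added being Lox (adjusted p = 0.00915, edgeR), and put Plod3 at 0.0132. The pairs' deviations correlated at 0.307, 0.283 and -0.060 over genes, and those of mice not listed together at -0.357 to 0.098. The labels do not say what the pairs are, so the block was kept as an alternative only. Whether the mice are paired was not settled. Depth limits P4ha3, with at most 4 reads a library. No reversal of direction was seen for a tested member under these alternatives.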
